A study of Mus musculus with 16 samples.

Results

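The regions described here are the open chromatin peaks around nuclear receptor genes in mouse pancreatic ductal adenocarcinoma (PDAC) cells, measured by ATAC-seq, in which a transposase cuts and tags accessible DNA. A peak was a member when the nearest start site of a protein-coding gene, within 100 kb of the middle of the peak, belonged to 1 of 42 listed nuclear receptor genes. A gene with several transcripts can have several start sites, and each distance given below is to the nearest of them. By this rule 383 of 136630 nuclear peaks were members, at 39 of the 42 genes. Rxrg, Nr2e1 and Pgr had no member peak. Hnf4a, Hnf4g and Nr5a2 were not on the list. The genes had 1 to 30 member peaks each, with a median of 7. A further 264 peaks had a listed gene as their nearest beyond 100 kb. The last peak inside the limit, 98751 bp from Esr2, had a mean normalised count of 21.7 in Liv OFF and 7.26 in Lung OFF, and the first outside it, 100476 bp from Nr4a3, had 15.1 and 30.4. Their median width was 621 bp, against 588 bp for all nuclear peaks, and their mean GC content was 47.8%, against 46.4%.

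All 16 samples came from KC-shSmad4 tumour cells, which carry, among other alleles, Ptf1a-Cre, a Rosa26 rtTA3-IRES-mKate2 allele and a doxycycline-inducible, GFP-linked short hairpin against Smad4 targeted to Col1a1. Lines made from such tumours were grown in female athymic nude mice, aged 6 to 8 weeks and lacking T cells, by injection into the pancreas (Panc), into the spleen to seed the liver (Liv) or into the tail vein to seed the lungs (Lung). In the OFF groups the mice stayed on doxycycline and Smad4 was silenced, and in the ON groups doxycycline had been withdrawn for 14 days and Smad4 was restored. The column names of the lung samples, OFF and ON, give day 15 and those of the other organs day 14. Withdrawal began 4 (Panc), 5 (Liv) or 6 (Lung) weeks after injection, so organ and time of growth cannot be told apart. The hairpin acts on RNA, so chromatin peaks do not check the silencing. There were 3 Panc OFF, 3 Panc ON, 2 Liv OFF, 2 Liv ON, 3 Lung OFF and 3 Lung ON samples, each from its own mouse, and the tumour cells were sorted by their mKate2 fluorescence. The sources used here do not say which cell line went into which mouse, so p-values measure the spread between these mice.

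Nuclear receptors are transcription factors, and most of them are switched by a small lipophilic ligand such as a steroid, thyroid hormone, retinoic acid, a fatty acid or a bile acid. Many, including the receptors for retinoic acid, thyroid hormone, vitamin D, bile acids and fatty acids, bind DNA with an RXR partner at 2 half-sites related to AGGTCA, while the steroid receptors bind palindromes as homodimers. In the liver they set the rates of bile acid, lipid and drug metabolism. In these bulk samples, fewer cells with an open site and less signal per cell cannot be told apart, and ATAC-seq does not measure how much of a receptor is made.

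The following 6 regions carry the results below, and their sequences are shown so that they can be set beside the values. The first 3 are promoters from RefSeq (build GRCm38.p6), from 250 bases before the start site to 30 bases after it. They are Rarb, the start site that was called lower in liver than in lung metastases, Nr1i2, the one with the largest difference in the other direction, and Nr0b2, the one that was lower after Smad4 restoration in the pancreas. The remaining 3 are the central 200 bases of the distal peaks with the smallest p between liver and lung. Capitals mark the direct repeat with 5 bases between its half-sites (DR5) in Rarb and single half-sites in the other sequences. Single half-sites in Rarb, such as gggtca before the DR5, were left unmarked. A half-site was AGGTCA, allowing G at its first base and T at the third, on either strand, and the sequences for Nr1i2 and Rxra held none.
Rarb promoter, chr14:16575447-16575726, minus strand: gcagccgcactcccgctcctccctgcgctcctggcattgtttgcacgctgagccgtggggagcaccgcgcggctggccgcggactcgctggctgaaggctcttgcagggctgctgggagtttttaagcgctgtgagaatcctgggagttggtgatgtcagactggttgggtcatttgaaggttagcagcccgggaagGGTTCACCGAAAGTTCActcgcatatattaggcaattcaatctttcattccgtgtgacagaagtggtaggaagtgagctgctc
Nr1i2 promoter, chr16:38294795-38295074, minus strand: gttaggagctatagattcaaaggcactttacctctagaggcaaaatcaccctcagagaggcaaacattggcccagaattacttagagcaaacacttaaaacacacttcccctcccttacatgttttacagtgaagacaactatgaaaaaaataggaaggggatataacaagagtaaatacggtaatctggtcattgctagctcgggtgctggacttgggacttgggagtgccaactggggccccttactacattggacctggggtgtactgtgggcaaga
Nr0b2 promoter, chr4:133553126-133553405, plus strand: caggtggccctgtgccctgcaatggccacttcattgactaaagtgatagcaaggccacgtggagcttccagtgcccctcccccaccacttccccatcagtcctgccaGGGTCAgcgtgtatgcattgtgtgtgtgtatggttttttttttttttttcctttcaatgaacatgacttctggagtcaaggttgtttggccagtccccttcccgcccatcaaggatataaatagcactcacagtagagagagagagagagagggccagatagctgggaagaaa
Nr2f2 distal peak, chr7:70424041-70424240, plus strand: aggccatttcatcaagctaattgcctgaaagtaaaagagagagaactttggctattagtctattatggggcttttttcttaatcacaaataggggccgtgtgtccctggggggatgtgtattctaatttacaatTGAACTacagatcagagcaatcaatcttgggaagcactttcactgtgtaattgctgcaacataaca
Rxra intronic peak, chr2:27721649-27721848, plus strand: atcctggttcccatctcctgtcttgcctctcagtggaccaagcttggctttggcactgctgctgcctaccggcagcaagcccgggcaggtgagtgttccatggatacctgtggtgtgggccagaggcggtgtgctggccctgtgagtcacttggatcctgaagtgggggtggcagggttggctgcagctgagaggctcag
Esrrb intronic peak, chr12:86398832-86399031, plus strand: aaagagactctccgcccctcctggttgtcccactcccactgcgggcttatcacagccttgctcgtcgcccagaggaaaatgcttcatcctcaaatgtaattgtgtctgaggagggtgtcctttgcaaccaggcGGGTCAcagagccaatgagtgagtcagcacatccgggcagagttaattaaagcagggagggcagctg

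The samples held 22994669 to 38218315 reads in peaks, and the median member peak held 48 to 88 reads per sample. Library pairs of 1 group differed by 3.70 to 8.20 times sampling noise (chi-square per degree of freedom) except for Panc ON replicate 3 (14.2 and 20.9) and Lung OFF replicate 1 (16.9 and 18.7), which stood apart from their groups. Ductal and tumour epithelium markers had a start-site peak for 8 of 8 genes, with summed normalised counts of 55900 to 57200 in Liv OFF, 42300 to 52600 in Liv ON, 25100 to 37500 in Lung OFF, 30300 to 33000 in Lung ON, 24900 to 27400 in Panc OFF and 18300 to 22000 in Panc ON. Hepatocyte markers had a start-site peak for 2 of 8 genes (Ttr and Apob), with Alb, Apoa1, Apoa2, Tat, Cyp2e1 and Cps1 having none, and their sum was 719 to 1170 in the liver samples and 233 to 608 elsewhere. Fibroblast markers (5 of 6 with a peak) summed to 594 to 1520 in the pancreas and 105 to 512 elsewhere. Endothelial markers (4 of 5) summed to 74.1 to 112 in the liver and 165 to 856 elsewhere, the highest in Lung OFF replicate 1. Lung epithelium and blood cell markers each had a peak for 1 of 6 genes, and acinar markers for 0 of 6. The part of these differences in the results below was not tested.

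With Smad4 silenced, more peaks at nuclear receptor loci were higher than lower in liver against lung metastases. Of the 383 peaks, 133 (34.7%) were higher in Liv OFF than in Lung OFF and 73 (19.1%) were lower, where a call needed an absolute log2 difference of at least 0.58 and a Benjamini-Hochberg adjusted p of at most 0.1 over all peaks (limma). Over all 136630 peaks, 22.9% were higher and 26.8% were lower. The median log2 difference was 0.34 over the members and 0.00 over all peaks. Without Lung OFF replicate 1 the members gave 111 higher and 63 lower peaks. The summed hepatocyte markers were 1010 to 1170 in Liv OFF and 383 to 543 in Lung OFF, from Ttr and Apob alone. Epithelial sums were also higher in Liv OFF (55900 to 57200 against 25100 to 37500) and endothelial sums lower (94.7 to 100 against 240 to 856). The 856 was in Lung OFF replicate 1, where Cdh5 alone had 697. Pecam1, Cdh5 and Tek were lower in both Liv OFF samples than in every Lung OFF sample, and Kdr overlapped. Among the epithelial markers Sox9 was not higher, with 3060 and 2840 in Liv OFF and 3010, 3060 and 3090 in Lung OFF. The part of these markers in the differences was not tested.

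**Figure D1:**
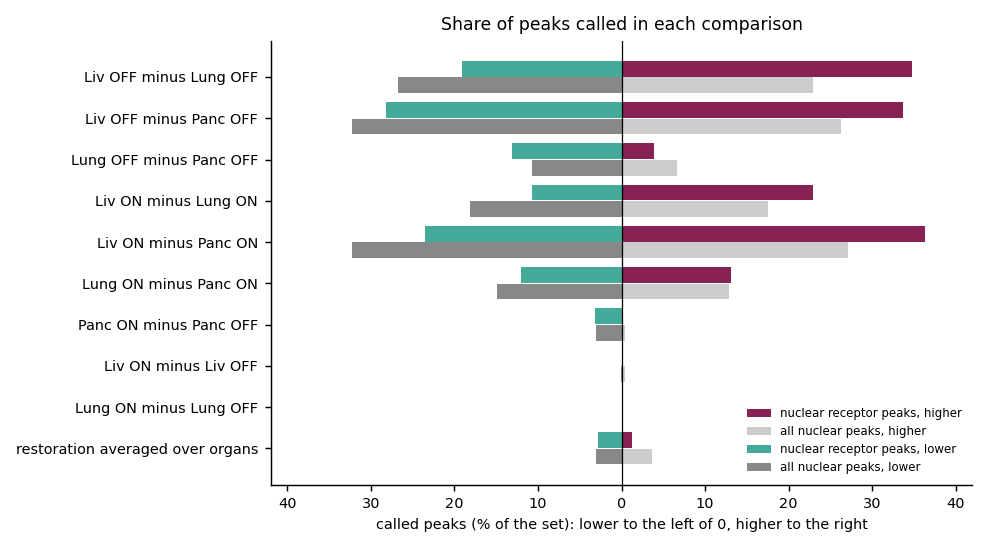
Share of peaks called higher (right) or lower (left) in each comparison, in percent, for the 383 nuclear receptor peaks and for all 136630 nuclear peaks. Liv OFF against Lung OFF had 34.7% of the members higher and 22.9% of all peaks, while after Smad4 restoration in any single organ no more than 12 members were called.

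The lipid, bile acid, vitamin D and xenobiotic sensors had the largest share of higher peaks among the 8 families. Of their 90 peaks, 45 (50.0%) were higher in Liv OFF than in Lung OFF and 16 (17.8%) were lower, with a median of 0.62. Over all peaks the shares were 22.9% and 26.8%. Ppara, the receptor that drives fatty acid oxidation, had 10 higher and 0 lower of 17 peaks, and the log2 differences of its peaks ran from 0.127 to 4.47. Pparg, the regulator of fat storage, had 16 higher and 6 lower of 27. Nr1h4, the bile acid receptor FXR, had 6 higher and 1 lower of 13, and Nr1i2, the xenobiotic receptor PXR, had 6 higher and 5 lower of 13. Ppard had 4 higher and 3 lower of 10, and Vdr, the vitamin D receptor, had 2 higher and 1 lower of 7. The single peak of Nr1i3, the xenobiotic receptor CAR, was higher, and the single peaks of the oxysterol receptor genes Nr1h2 and Nr1h3 were not called (0.49 and 0.53).

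Thyroid hormone and retinoid receptor loci gave 39 higher (36.1%) and 24 lower (22.2%) of 108 peaks, with a median of 0.23. Over all peaks 22.9% were higher and 26.8% lower. A pair of neighbours on chromosome 14 went opposite ways. Thrb, a thyroid hormone receptor, had 15 higher and 3 lower of 25 peaks (median 1.36), and Rarb, a retinoic acid receptor, had 0 higher and 14 lower of 27 (median -0.75). Rxra, the common dimer partner, had 15 higher and 6 lower of 30. Thra had 3 higher and 0 lower of 4 peaks and Rarg had 3 higher and 0 lower of 5, while Rara had 3 higher and 1 lower of 15 and neither Rxrb peak was called.

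Steroid receptor loci gave 20 higher (35.1%) and 6 lower (10.5%) of 57 peaks, against 22.9% and 26.8% of all peaks. Their median was 0.36, and there were 16 calls in place of 26 without Liv OFF replicate 2. Of the 20 higher ones, 10 were at Nr3c1, the glucocorticoid receptor, which had 1 lower of 24. Esr1, the oestrogen receptor alpha, had 4 higher and 3 lower of 17, Esr2 had 3 higher and 0 lower of 8, and Nr3c2, the mineralocorticoid receptor, had 3 higher and 2 lower of 8. The NR2 orphan receptors gave 11 higher (23.4%, near the share of all peaks) and 7 lower (14.9%) of 47. Nr2f2 (COUP-TFII) had 5 higher and 1 lower of 18, and Nr2e3, a photoreceptor regulator, had 0 higher and 4 lower of 9. The NR4A immediate early receptors gave 4 higher (18.2%) and 2 lower (9.09%) of 22, and 2 calls in place of 6 without Liv OFF replicate 2.

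Negative medians were found in 3 families. The clock-related receptors gave 4 higher (21.1%) and 6 lower (31.6%) of 19 peaks (median -0.34), against 22.9% and 26.8% of all peaks. All 6 lower peaks were at Rorb, and the call count fell to 6 without Lung OFF replicate 1. The oestrogen-related receptors gave 3 higher (23.1%) and 4 lower (30.8%) of 13 (-0.20), and all 4 lower peaks were at Esrrb. Nr5a1, Nr6a1 and Nr0b2 gave 7 higher (25.9%) and 8 lower (29.6%) of 27 (-0.15). The shares in these 3 families were near those of all peaks. Nr5a1, the steroidogenic factor SF-1, had 0 higher and 3 lower of 5, all intergenic (-2.90, -2.37 and -2.43), and Nr6a1, a germ cell receptor, had 7 higher and 5 lower of 19. Nr0b2, the corepressor SHP, had none called of 3.

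Thrb, Rarb, Rxra, Ppara, Pparg, Nr1i2, Nr3c1 and Nr6a1 each had at least 10 called peaks, and together held 119 of the 206. They had 13 to 30 peaks each, where the median gene had 7. A gene with fewer than 10 peaks could not reach 10 calls, so this count follows the number of peaks in part. Among the 39 genes, 10 had calls only in the higher direction, 4 only in the lower direction, 18 had both and 7 had none.

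**Figure D2:**
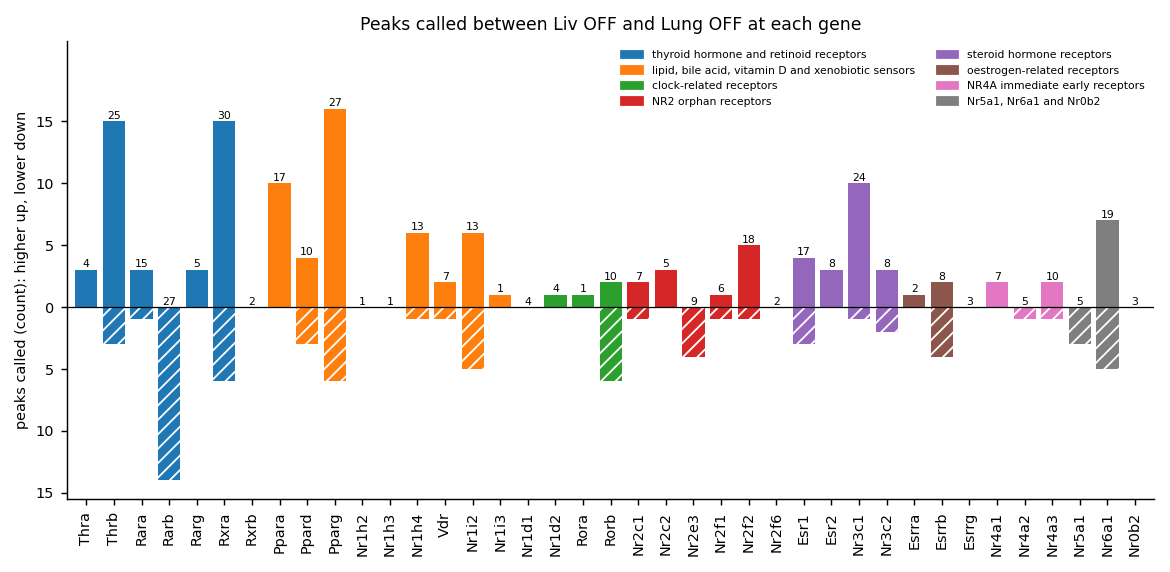
Number of member peaks called higher (up) or lower (down) in Liv OFF against Lung OFF, per gene. Pparg had 16 higher and 6 lower peaks, and Rarb had 14 lower and 0 higher.

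A peak with its middle within 1000 bp of the start site was present for 34 genes. Of these, 13 (38.2%) were higher in Liv OFF than in Lung OFF and 1 (2.94%) was lower, against 20.9% and 5.76% of all 13341 peaks at that distance. The difference had a positive sign at 85.3% of the 34 peaks and at 82.7% of all such peaks. For some genes, among them Rora, Rarb and Nr1h4, the start site was an internal one and not the outer end of the gene. Nr2e3, Nr2f1, Nr3c2, Esrrg and Nr5a1 had peaks but none with its middle within 1000 bp of the start site, although a wide peak covered that of Nr2f1 and that of Nr3c2. With a GC correction, 6 were higher and 3 lower, and the calls at Ppard, Rora, Thrb, Rarg, Vdr, Nr2c2 and Nr1d2 were lost. The shares of all such peaks were not counted with this correction, so 20.9% and 5.76% are no background for the corrected counts. Without Liv OFF replicate 2 there were 8 calls in all.

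Among the higher start sites were those of the xenobiotic, bile acid and fatty acid receptors. At Nr1i2 (chr16:38294434-38296026) the normalised counts were 1000 and 819 in Liv OFF and 151, 336 and 179 in Lung OFF, a log2 difference of 2.11 ± 0.33 (SE, adjusted p 0.000186). Both liver samples stood above all 3 lung samples, and Panc OFF had 299, 276 and 171. At Nr1i3 (chr1:171213715-171214053) they were 53.1 and 55.7 against 18.4, 26.1 and 14.6 (1.46 ± 0.37, adjusted p 0.00491). Nr1h4 (chr10:89506326-89507228) had 196 and 167 against 58.0, 93.5 and 87.9 (1.20 ± 0.35, adjusted p 0.011). Ppara (chr15:85734416-85736299) had 939 and 1520 against 497, 730 and 651 (0.95 ± 0.20, adjusted p 0.00146). In each of these 4 the lowest liver value lay above the highest lung value, as it did at uncalled start sites such as Nr1h2, Nr1h3 and Esr1. With 2 against 3 samples this order was common. Of the 383 members, 176 had all liver values above the lung values and 89 had all below. The share over all peaks was not counted.

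Pparg (chr6:115360663-115362852) had 1360 and 1190 in Liv OFF against 571, 634 and 587 in Lung OFF (1.09 ± 0.16, adjusted p 0.0001). Ppard had 1890 and 2060 against 1150, 1250 and 1090 (0.76), and Thrb had 1410 and 1710 against 821, 1040 and 1010 (0.70). All 3 had both liver samples above the lung samples. Rora and Nr1d2, which act in the circadian clock, had 195 and 276 against 144, 137 and 143 (0.71), and 4590 and 5100 against 2880, 3540 and 3220 (0.59). Nr6a1 had 2590 and 2950 against 1530, 1890 and 1770 (0.68), and Nr2c2 had 2220 and 2930 against 1560, 1840 and 1670 (0.60). Again no lung sample reached a liver sample, which also held at uncalled start sites such as Nr2c1. Rarg had 1620 and 1770 against 973, 1200 and 1070 (0.65), and Vdr had 1230 and 1480 against 923, 917 and 813 (0.61). These calls near the 0.58 limit depended on the processing, with differences down to 0.16 at Rarg (regional correction) and 0.17 at Nr1d2, 0.18 at Nr2c2 and 0.27 at Vdr (quantile normalisation). Single libraries also decided them. The calls at Nr1d2 (0.52), Nr2c2 (0.40), Vdr (0.47), Rora (0.46) and Thrb (0.57) were lost without Liv OFF replicate 2, those at Rarg, Nr1d2 and Nr2c2 without Lung OFF replicate 1, and that at Vdr without Lung OFF replicate 3.

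Rarb (chr14:16574775-16576077) was the single lower start site, with 332 and 263 in Liv OFF against 453, 444 and 568 in Lung OFF (-0.71 ± 0.19, adjusted p 0.00617). The call was lost without Liv OFF replicate 2 (-0.55) and with the regional correction (-0.30). Rarb was also lower against Panc OFF, which had 528, 543 and 556.

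**Figure D3:**
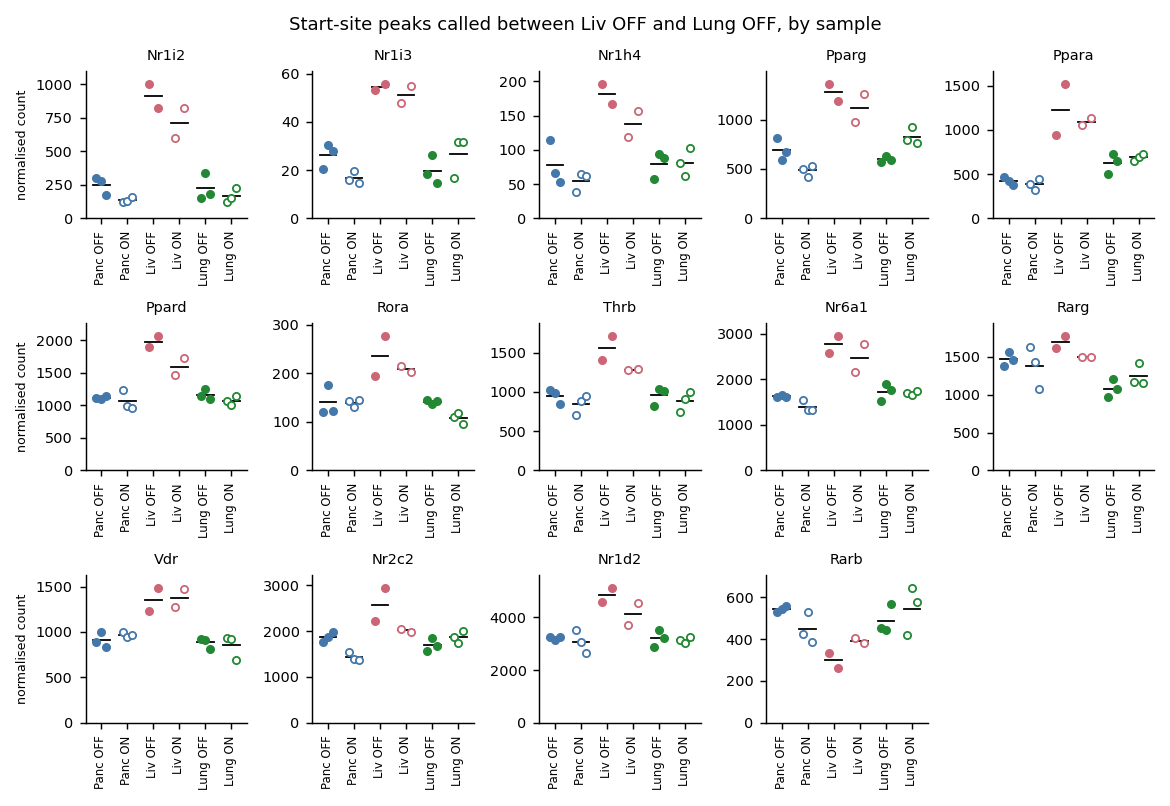
Normalised counts at the start-site peaks called between Liv OFF and Lung OFF, with a point for each sample in the 6 groups and a line at the group mean. Nr1i2 reached 1000 and 819 in Liv OFF and no more than 336 in Lung OFF, and Rarb was the one peak that was lower in Liv OFF.

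The smallest p among all members belonged to distal peaks. An intergenic peak at chr7:70423581-70424700, 57405 bp from the Nr2f2 start site, had 156 and 315 in Liv OFF, 287 and 344 in Liv ON, 8.28, 15.2 and 9.48 in Lung OFF, and 35.0, 38.4 and 33.3 in Panc OFF (Liv OFF minus Lung OFF 4.26 ± 0.39, adjusted p 9.06e-06). The liver samples stood above every other sample. An intronic Rxra peak at chr2:27721413-27722084 had 246 and 428 in Liv OFF against 14.7, 29.3 and 19.8 in Lung OFF (3.92 ± 0.39, adjusted p 1.45e-05). Further intronic Rxra peaks, 5246 and 34309 bp from the nearest Rxra start site of each, were higher by 1.99 and 3.28. A further Rxra peak, 23278 bp from the start site, was lower (-1.58 ± 0.22).

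Among the lower peaks, an Esrrb intron at chr12:86398462-86399400 had 82.7 and 94.7 in Liv OFF against 408, 247 and 401 in Lung OFF (-1.94 ± 0.22, adjusted p 2.61e-05). Esrrb encodes an oestrogen-related receptor that acts in pluripotent cells. The next intronic Esrrb peak, 25901 bp from the start site, had 239 and 248 against 649, 472 and 725 (-1.31), and an intronic Ppard peak had 406 and 418 against 986, 718 and 859 (-1.04). In all 3 the liver samples lay below every lung sample, which was a condition for choosing these peaks and not a further result.

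**Figure D4:**
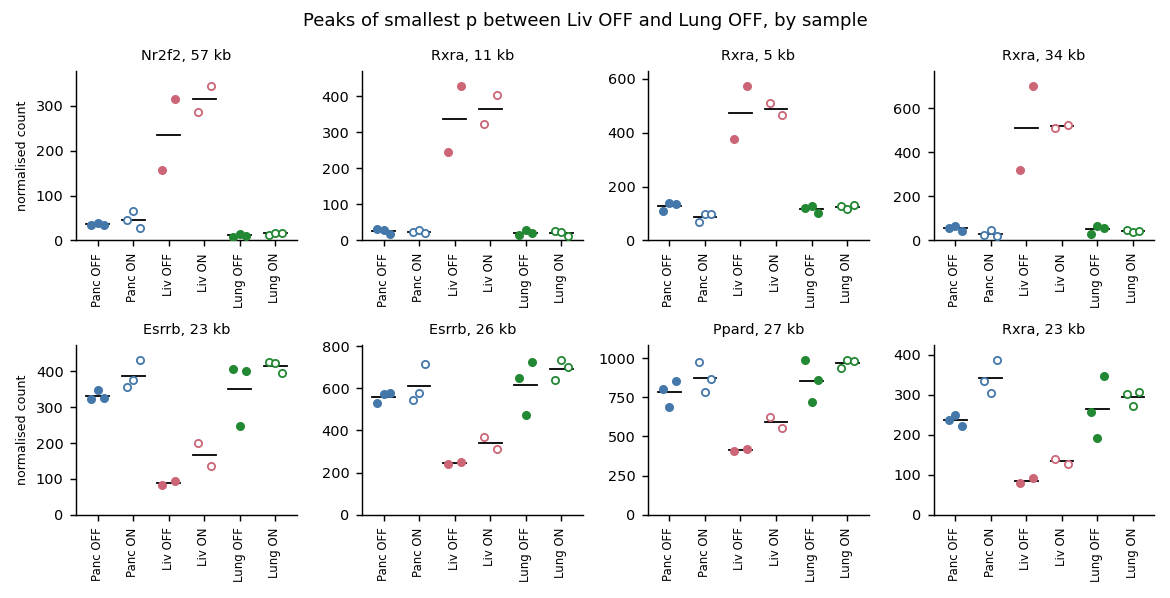
Normalised counts at the distal peaks of smallest p between Liv OFF and Lung OFF, with a point for each sample and a line at the group mean. The Nr2f2 peak had 156 and 315 in Liv OFF and at most 15.2 in Lung OFF, and the Esrrb peak had the opposite order.

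Lower calls were fewest near start sites, among the members as among all peaks. Within 1000 bp of a start site 14 of 40 peaks were higher and 1 lower. From there to 20 kb the figures were 57 (39.0%) and 18 (12.3%) of 146, against 27.9% and 22.5% of all peaks at that distance, and beyond 20 kb they were 62 (31.5%) and 54 (27.4%) of 197, against 22.6% and 30.1%. By annotation, 216 members were intronic (76 higher, 49 lower), 117 intergenic (41 and 19), 40 at promoters (14 and 1) and 10 exonic (2 and 4). Of all peaks, 24.3% of intronic ones were higher and 27.4% lower, 21.8% and 31.0% of intergenic, 20.9% and 5.76% of promoter and 26.9% and 22.6% of exonic ones.

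Liver metastases also differed from primary tumours. In Liv OFF against Panc OFF, 129 members (33.7%) were higher and 108 (28.2%) lower, against 26.2% and 32.3% of all peaks. The sensors again had more higher than lower peaks, with 42 and 15 of 90, while the oestrogen-related receptors had 1 and 6 of 13. An intronic Thrb peak at chr14:17741413-17743983 had 371 and 464 in Liv OFF against 57.2, 54.5 and 58.3 in Panc OFF (2.85 ± 0.33, adjusted p 1.31e-05). An intergenic Nr2f2 peak at chr7:70266841-70267589 had 106 and 110 against 509, 528 and 570 (-2.30 ± 0.27, adjusted p 1.5e-05). The Nr2f2 locus held peaks that were higher and peaks that were lower in the liver samples.

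Fewer members were called between lung metastases and primary tumours. In Lung OFF against Panc OFF, 15 members (3.92%) were higher and 50 (13.1%) lower, against 6.59% and 10.7% of all peaks. Without Panc OFF replicate 2 there were 40 calls, and without replicate 3 there were 31. The lower peaks included 12 of 47 in the NR2 family, of which Nr2f2 had 10 of 18, and Esr1 had 6 of 17. An intronic Rarb peak at chr14:16554580-16555598 had 21.2, 28.3 and 30.2 in Lung OFF against 143, 163 and 233 in Panc OFF (-2.70 ± 0.41, adjusted p 0.000841). Another intronic Rarb peak, 30121 bp from the start site, was higher, with 446, 217 and 322 against 88.0, 146 and 73.2 (1.68 ± 0.39, adjusted p 0.0113). An intergenic Thrb peak 80893 bp from the start site was low in the lungs, with 3.68, 0.00 and 4.31 against 56.4, 57.2 and 72.2 (adjusted p 0.00103). Esrrb gave the other higher peak of smallest p, with 335, 248 and 278 against 155, 197 and 199 (0.64 ± 0.20), a call that was lost without Panc OFF replicate 1 or Lung OFF replicate 1. The start-site peak of Esr1 was lower (-1.41), at low counts of 12, 8.69 and 4.31 against 20.5, 17.9 and 29.6. Nr4a2 had 3 higher and 0 lower of 5, and Rxra 0 higher and 10 lower of 30. The summed fibroblast markers were 797 to 1280 in Panc OFF and 171 to 512 in Lung OFF, and their part in these differences was not tested.

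Many organ differences were called again with Smad4 restored. In Liv ON against Lung ON, 88 members (23.0%) were higher and 41 (10.7%) lower, against 17.6% and 18.2% of all peaks, and without Liv ON replicate 2 there were 61 calls. Of the 133 peaks higher in Liv OFF than in Lung OFF, 80 (60.2%) were also called higher in the ON samples, which was 90.9% of the ON calls. Of the 73 lower peaks, 34 (46.6%) were called lower again, and none was called the other way. Over all peaks, 67.5% of the higher and 56.9% of the lower OFF calls were repeated. The Nr2f2 and Rxra peaks shown above again had the smallest p among the higher peaks (4.27 and 4.19), and intronic peaks of Nr2e3 (-1.59) and Esrrb (-1.33) among the lower.

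In Liv ON against Panc ON there were 139 higher (36.3%) and 90 lower (23.5%), against 27.1% and 32.2% of all peaks. Of the OFF calls for these organs, 117 of 129 higher (90.7%) and 81 of 108 lower (75%) were called again, which was 84.2% and 90% of the ON calls. Over all peaks 86.6% and 83.9% of the OFF calls were repeated. Intronic Rxra peaks 5246 and 34309 bp from the start site led the higher peaks (2.47 ± 0.24 at the first), and peaks at Nr2f2 (-1.81) and Nr2f1 (-0.74) the lower. In Lung ON against Panc ON there were 50 higher (13.1%) and 46 lower, against 12.8% and 14.9% of all peaks, and with a GC correction 76 and 45. Without Panc ON replicate 3 there were 117 calls in all. Of the OFF calls, 6 of 15 higher (40% of OFF calls and 12% of ON calls) and 36 of 50 lower (72% and 78.3%) were called again, and 1 lower peak was called higher. Over all peaks 40.8% and 77.5% of the OFF calls were repeated. Epithelial sums were 30300 to 33000 in Lung ON and 18300 to 22000 in Panc ON, and fibroblast sums 184 to 211 and 594 to 1520, and their part in these differences was not tested. Of the epithelial markers, Krt7, Epcam and Sox9 overlapped. Sox9 had 2790, 2760 and 3020 in Lung ON and 4110, 3440 and 2950 in Panc ON. The sensors gave 18 higher and 5 lower of 90. At the start site of Nr0b2, Lung ON had 208, 381 and 395 and Panc ON had 64.9, 43.3 and 46.8 (2.61 ± 0.35, adjusted p 0.000422). An Nr2f2 peak 1077 bp from the start site had 128, 106 and 122 in Lung ON against 684, 551 and 290 in Panc ON (adjusted p 0.000577), the lowest of these in the replicate that stood apart. An intronic Nr6a1 peak had 4.49, 1.92 and 2.80 against 59.6, 84.2 and 16.9, with the same replicate lowest.

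Few of these peaks were called after Smad4 restoration. In the pancreas, 0 members were higher and 12 (3.13%) were lower in Panc ON than in Panc OFF, against 0.364% and 3.06% of all peaks. Pairing the lung samples by replicate number gave 20 lower members (4.88% of all peaks lower). The count depended on single libraries, with 2 calls without Panc OFF replicate 1 or 2, 5 without replicate 3, 4 without Panc ON replicate 1, 7 without replicate 2, and 20 and 19 without Lung OFF replicate 1 and 2. Epithelial marker sums were also lower, at 18300 to 22000 in Panc ON and 24900 to 27400 in Panc OFF, and their part in the 12 lower peaks was not tested. Of these markers, Krt19, Krt18 and Sox9 overlapped between the groups. Sox9 had 4110, 3440 and 2950 in Panc ON and 3180, 3140 and 3150 in Panc OFF. Fibroblast sums overlapped, at 797 to 1280 in Panc OFF and 594 to 1520 in Panc ON.

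All 3 Nr0b2 peaks were among the 12. The start-site peak had 168, 169 and 261 in Panc OFF and 64.9, 43.3 and 46.8 in Panc ON (-1.92 ± 0.35, adjusted p 0.0178), with no overlap between the groups. The peaks 4238 and 9988 bp away fell by 0.81 and 1.09 (adjusted p 0.0847 and 0.0533). An intergenic Rxra peak 50404 bp from the start site had 70.9, 72.4 and 65.8 against 16.9, 21.0 and 16.1 (-1.90 ± 0.30, adjusted p 0.0109). An intronic Pparg peak had 25.6, 25.0 and 20.4 against 5.33, 4.95 and 7.66 (-1.83 ± 0.38, adjusted p 0.0253), and this call was lost without Panc OFF replicate 1 or 2 and by DESeq2. The others were a further pair at Rxra (-0.65 and -0.72) and 1 each at Rorb (-1.76), Nr6a1 (-1.49), Nr2e3 (-1.14), Nr4a1 (-1.11) and Nr2f2 (-0.72).

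**Figure D5:**
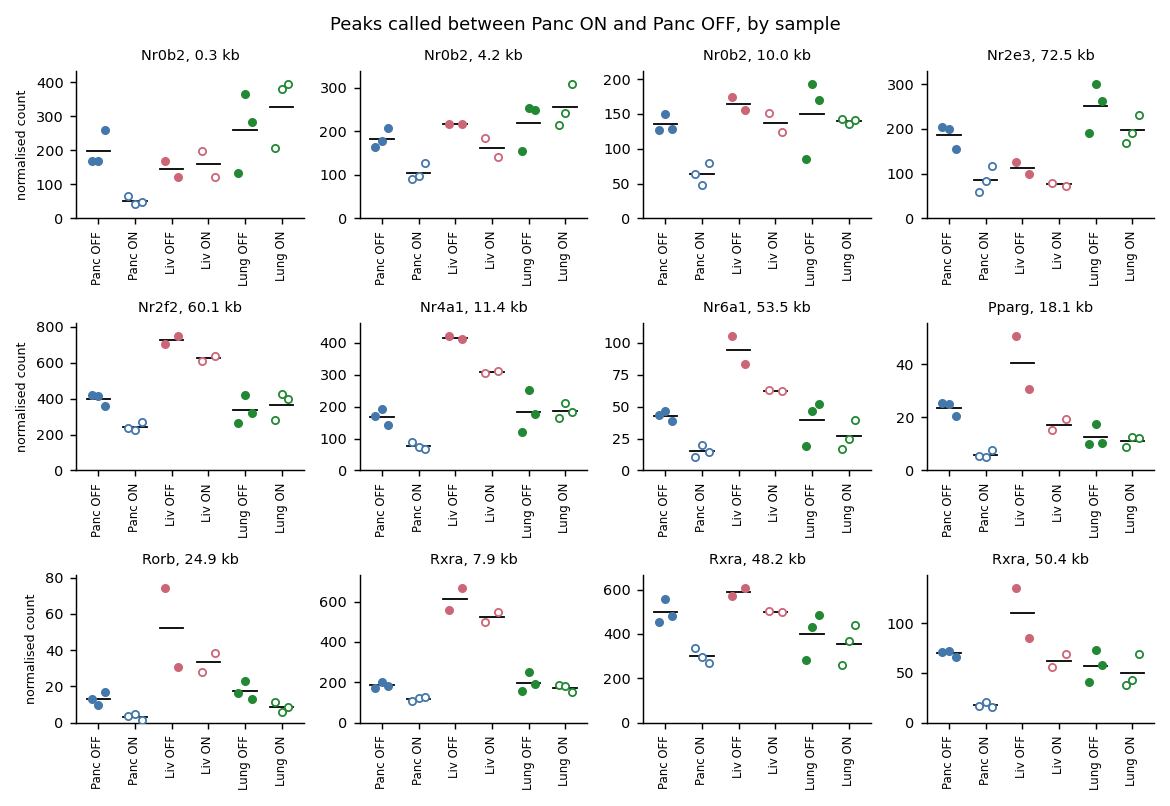
Normalised counts at the 12 peaks that were lower in Panc ON than in Panc OFF, with a point for each sample and a line at the group mean. The Nr0b2 start-site peak had 168 to 261 in Panc OFF and 43.3 to 64.9 in Panc ON, while Lung OFF and Lung ON overlapped.

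In the liver, limma called 0 members in Liv ON against Liv OFF (0.462% of all peaks higher and 0.0886% lower), with 48 (12.5%) at an unadjusted p under 0.05, against 12.1% of all peaks. There edgeR called 0 and DESeq2 6 (1.57%, against 2.33% of all peaks). With the lungs paired there were 3 higher and 1 lower (1.19% and 0.274% of all peaks), at Esrrb, Rxra and Pparg and, lower, at Rara. In the lungs limma called 0 in Lung ON against Lung OFF (0.00146% of all peaks higher and 0.0022% lower), with 24 (6.27%) at an unadjusted p under 0.05, against 7.11% of all peaks. There edgeR called 0 and DESeq2 3 (0.783%, against 0.73%). Averaged over the organs, 5 members were higher (1.31%) and 11 lower (2.87%), against 3.61% and 3.0% of all peaks, and 2 and 9 with a GC correction and 2 and 11 with quantile normalisation. Nr4a3 (1.24 ± 0.34), Rorb (0.95 ± 0.29) and Rarb (0.93 ± 0.28) held the higher peaks of smallest p, and Pparg (-1.04 ± 0.23), Rxra (-0.96 ± 0.19) and Nr3c1 (-0.82 ± 0.19) the lower. Leaving out single libraries lost the call at Rorb in 9 cases (lowest 0.80), at Rarb in 6 (lowest 0.71) and at Nr4a3 in 2 (1.07 without Liv ON replicate 2 and 1.19 without Liv OFF replicate 1). The count of averaged calls was 34 without Lung OFF replicate 1, 6 without Liv OFF replicate 1, 9 without Liv ON replicate 1, and 10 without Panc OFF replicate 2 or Lung OFF replicate 2.

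The restoration effects of each pair of organs were also compared with each other. Without pairing, limma called 0 members for Liv minus Lung, Liv minus Panc and Lung minus Panc (0.0% of all peaks each), with 25 (6.53%), 18 (4.7%) and 43 (11.2%) at an unadjusted p under 0.05, against 5.25%, 3.95% and 11% of all peaks. For the first 2, edgeR and DESeq2 called 0. For Lung minus Panc, edgeR called 0, DESeq2 11 (2.87%, against 1.65% of all peaks), and limma with the lungs paired 11, all of them higher (1.27% of all peaks), and 9 were called by both. Without Lung OFF replicate 2, limma called 15. At the Nr0b2 start site the difference was 2.31 ± 0.50 without pairing (adjusted p 0.231) and 2.31 ± 0.36 with it (adjusted p 0.0235). Its restoration effect was -1.92 in the pancreas, 0.39 in the lungs and 0.11 in the liver. Of the 11 peaks, 5 were at Pparg, including its start-site peak with 571, 634 and 587 in Lung OFF, 795, 922 and 767 in Lung ON, 815, 595 and 670 in Panc OFF and 503, 423 and 533 in Panc ON.

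Genes that work with the receptors had called peaks in both directions, as all peaks did (22.9% higher and 26.8% lower). In Liv OFF against Lung OFF, peaks of 10 coactivator and corepressor genes gave 34 higher and 34 lower of 146 (23.3% each), those of 10 retinoid handling and target genes 29 and 36 of 130 (22.3% and 27.7%), those of 10 lipid and bile acid target genes 25 and 15 of 77 (32.5% and 19.5%), and those of 10 glucocorticoid and clock target genes 36 and 35 of 142 (25.4% and 24.6%). The medians were 0.04, -0.14, 0.26 and 0.16. Called start sites were all higher, where 20.9% of all promoter peaks were higher and 5.76% lower, and included Abcg1, a cholesterol exporter (1.71), Pdk4, which restrains glucose oxidation (1.48), and Aldh1a1, which makes retinoic acid (0.90). For averaged restoration these lists gave 1 and 3 calls of 146, 8 and 2 of 130, 2 and 2 of 77, and 4 and 5 of 142, against 3.61% and 3.0% of all peaks.

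Half-sites were about as common at these loci as elsewhere. In the central 200 bases, a half-site was present in 145 of 383 members (37.9%) and in 36.9% of all peaks, and in 45.1% of the higher and 42.5% of the lower members in Liv OFF against Lung OFF, where all higher and all lower peaks had 40.1% and 36.9%. In the same 200 bases, direct repeats with 1 to 5 bases between half-sites (DR1 to DR5) were found in 0 of 383 members. Over all peaks they were found in 0.191%, 0.153%, 0.0593%, 0.0886% and 0.143%. The rest of each peak was not searched. The steroid receptor palindrome GNACANNNTGTNC was found in 3 members (0.783%) and in 0.370% of all peaks. In the RefSeq promoters, 32 of 32851 held a DR5 (0.0974%) and 43.7% a half-site. Among 58 promoters of 39 members the DR5 of Rarb shown above was the single one. That DR5 lies inside the Rarb start-site peak but runs past the edge of its central 200 bases. A match is a description of the letters and not of binding.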

How the data were processed

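ATAC-seq was measured in 16 samples. The authors deposited 1 table of signal over a common peak set, as read counts divided by size factors. The submitters' processing notes name FastQC 0.11.5, Trim Galore, cutadapt, Bowtie2, MACS2, bedtools, featureCounts and DESeq2, and the coordinates are mm10. The deposited normalised counts are whole multiples of what 1 read is worth (100% within 0.01 reads), so reads were recovered for the count tests. Mitochondrial peaks (1.43 to 3.56% of reads) were left out. Samples were grouped by their labels. Peaks were assigned to start sites of GENCODE vM21 basic.

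Values were fitted as log2(normalised count + 1) with limma 3.58.1 (R 4.3.3) over all nuclear peaks and 6 groups, so differences of low peaks are understated, and p-values were Benjamini-Hochberg adjusted over all peaks. edgeR 4.0.16 and DESeq2 1.42.0 were run on the recovered reads. The code was tested on simulated data. Same-numbered OFF and ON samples deviated together in the lungs (correlations 0.491, 0.124 and 0.214). They did not in the pancreas (-0.33, 0.0271 and -0.33) or liver (0.0834). Lung pairs with different numbers gave 0.184 and 0.182 among replicates 2 and 3, and -0.25 to -0.34 where replicate 1 took part. The labels number the mice but do not pair them. Pairing in the lungs only was thus an alternative chosen from these same values. Named peaks were start-site peaks called between Liv OFF and Lung OFF, the 4 non-overlapping calls per direction with the lowest p there, 2 per direction for other organ comparisons and 3 for restoration, with every gene of 10 or more calls. Others singled out were chosen after their values were seen. Some items are not reported here. Members and lists were chosen with earlier results of these data known. Depth was 22994669 to 38218315 reads per sample, which limits precision at weak peaks. Alternatives were other normalisations, GC and regional corrections, thresholds, pseudocounts, distance limits, replicate blocks, tools and leaving out each replicate.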

Additional observations from a re-analysis of the deposited data

Results flagged for a closer look

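With the lungs paired by replicate number, 11 peaks showed a restoration effect that differed between the lungs and the pancreas, by the test of the difference itself (limma, adjusted p between 0.0235 and 0.0989). The differences, as the log2 change after restoration in the lungs minus that in the pancreas, were 2.31 at the Nr0b2 start site, 1.71 at Rxra, 1.19 at Nr4a1, 0.95 at Rara, 0.85 at Nr2f2 and 0.61 at the Esrra start site. The 5 Pparg peaks gave 0.91, 1.17, 0.97, 1.12 and 0.7. Without pairing limma called none of them, edgeR called 0 members for this difference, and DESeq2 called 9 of the 11. The labels do not pair the mice, and the pairing was chosen from these same data. At Nr0b2 the values rested on a fall in the pancreas samples, with the lung groups overlapping (133 to 367 in Lung OFF and 208 to 395 in Lung ON).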

How the results depend on the processing

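Counts below are members called in either direction. With start sites limited to 20 kb, 186 peaks remained as members and the counts were 90 for Liv OFF against Lung OFF, 103 for Liv OFF against Panc OFF, 25 for Lung OFF against Panc OFF, 55 for Liv ON against Lung ON, 101 for Liv ON against Panc ON, 42 for Lung ON against Panc ON, 6 for restoration in the pancreas and 7 averaged. Stricter thresholds (1 and 0.05) gave 39 for Lung OFF against Panc OFF, 56 for Lung ON against Panc ON, 5 for restoration in the pancreas and 3 averaged. DESeq2 gave 19, 6 and 3 for restoration in the pancreas, liver and lungs and 11 for Lung minus Panc, and quantile normalisation gave 21 for the pancreas. TMM factors and the regional correction each gave 1 for the liver, and a pseudocount of 10 gave 9 averaged. The replicate block in the lungs gave 20 for the pancreas, 4 for the liver and 11 for Lung minus Panc, and moved no other count by over 1.5 times. A block in every organ gave 2 for Lung minus Panc. The cause of these differences was not tested.

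Leaving out each replicate in turn gave 153 to 217 calls for Liv OFF against Lung OFF, 190 to 238 for Liv OFF against Panc OFF, 31 to 70 for Lung OFF against Panc OFF, 61 to 140 for Liv ON against Lung ON, 158 to 239 for Liv ON against Panc ON, 73 to 117 for Lung ON against Panc ON, 2 to 20 for restoration in the pancreas, 0 to 3 in the liver, 0 to 0 in the lungs, 6 to 34 averaged, 0 to 15 for Lung minus Panc and 0 to 0 for the other 2 differences.

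The GC correction shifted the median of all peaks by 0.13 in Liv OFF against Panc OFF, 0.15 in Lung ON against Panc ON and -0.11 in Liv minus Lung, and quantile normalisation by 0.11 in Lung ON against Panc ON. Of 1469 alternative values of named peaks, 1379 kept direction and call, 89 kept direction only, and 1 changed sign, the Nr2f1 peak at 1749 bp in Liv ON against Panc ON (0.18 with the regional correction). Averaged restoration could not be fitted with only the groups compared. At a median of 48 to 88 reads per member peak, small differences at weak peaks were not detectable.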
